A study of Homo sapiens with 6 samples.

Results

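Transcripts of 9 genes that respond to, or encode, transforming growth factor beta (TGF-beta) and that include much-used targets of the transcriptional co-activator YAP were followed in 786-O cells with and without chronic copper. They were the ligand genes TGFB1 and TGFB2, the receptor gene AXL, the genes AMOTL2 and ANKRD1, and the matrix-associated genes CCN1, CCN2, THBS1 and TGFBI. They were chosen by symbol, and each matched 1 row of the 25987 named genes in the deposited table. All 9 passed the filter on low counts that left 12944 genes for testing.

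786-O is a long-used human cell line that was derived from a clear cell renal carcinoma and lacks working VHL, the tumour suppressor that marks hypoxia-inducible factors for destruction. All 6 samples were wild-type 786-O in DMEM/F12 with serum. In the 3 copper samples the serum had been loaded with copper sulfate in the cold, at 30 uM copper per the series text, with 30, 31 and 32 uM written in the labels of replicates 1, 2 and 3. The 3 control samples received serum carried through the same steps with no copper added. The labels give no length of exposure and do not say whether the samples of a group were separate cultures, so p-values measure the spread between these samples, which may be technical.

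TGF-beta ligands are secreted in a latent complex, and once freed they bind a pair of kinase receptors that phosphorylate SMAD2 and SMAD3, which enter the nucleus with SMAD4. YAP and its relative TAZ are held in the cytoplasm by the Hippo kinases and, when released by stretch, spreading or low cell density, act through the DNA-binding TEAD proteins. The pathways share targets such as CCN2, and in the kidney both are known for their part in tubular injury, fibrosis and the mesenchymal traits of renal carcinoma cells.

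The libraries held between 16301772 and 25079913 counts, and 57.9% of the variance of log2 CPM (a gene's count relative to the scaled library size) lay along a first component that set replicate 3 of both groups apart from replicates 1 and 2. These are bulk samples, in which fewer cells of a kind and less RNA per cell cannot be told apart. Results that rest on replicate 3 are therefore given with and without it. The kidney marker PAX8 lay between 123 and 147 CPM in every library and the epithelial keratin KRT8 between 425 and 597 CPM, while CA9, often high in clear cell carcinoma, did not exceed 0.122 CPM. Others of these 10 renal markers were low or less steady. PAX2 was at 8.23 to 9.01 CPM in copper and 5.63 to 7.30 in control, and 5.45% of all genes were higher in copper without overlap. NDUFA4L2 was at 0.833 to 1.35 CPM. CDH6 was at 90.8 and 121 CPM in replicate 3 of copper and control, and at 198 to 249 CPM elsewhere. Summed CPM of 7 leukocyte markers was 0.549 to 1.03 in copper and 0.724 to 1.10 in control, and that of 6 endothelial markers was 1.12 to 2.10 and 1.32 to 2.57. For 8 fibroblast markers it was 11.0 to 14.0 in copper and 12.5 to 20.0 in control, mostly from COL1A1, LUM and PDGFRB, and no marker of these lists was at 0 in all 6 libraries.

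The DNA before the start of several of these genes carries the TEAD recognition core, and the sequences with most matches or belonging to the genes that varied together are shown here. RefSeq promoter windows on GRCh38.p14 were matched for 8 of the 9 genes, in 10 windows, AXL and AMOTL2 having 2 starts each. Each window is the 250 bases before the start, printed 5′ to 3′ on the strand of the gene, and capitals mark the TEAD motif GGAATG or its reverse complement CATTCC.
CCN2 promoter, chr6:131951373-131951622, minus strand: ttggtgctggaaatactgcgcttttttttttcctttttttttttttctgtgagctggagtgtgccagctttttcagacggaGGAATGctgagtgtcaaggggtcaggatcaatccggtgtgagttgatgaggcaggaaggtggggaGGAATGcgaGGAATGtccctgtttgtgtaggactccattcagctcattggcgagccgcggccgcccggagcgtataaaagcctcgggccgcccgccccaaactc
ANKRD1 promoter, chr10:90921088-90921337, minus strand: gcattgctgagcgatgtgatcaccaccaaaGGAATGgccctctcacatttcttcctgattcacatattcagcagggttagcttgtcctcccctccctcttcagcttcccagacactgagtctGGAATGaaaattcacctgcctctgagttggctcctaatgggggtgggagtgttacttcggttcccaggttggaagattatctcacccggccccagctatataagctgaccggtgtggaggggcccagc
THBS1 promoter, chr15:39580829-39581078, plus strand: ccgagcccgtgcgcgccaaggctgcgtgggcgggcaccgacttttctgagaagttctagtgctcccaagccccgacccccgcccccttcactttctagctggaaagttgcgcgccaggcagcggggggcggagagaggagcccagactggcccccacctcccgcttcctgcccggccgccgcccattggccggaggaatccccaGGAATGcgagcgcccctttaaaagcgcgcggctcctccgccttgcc
TGFB2 promoter, chr1:218345086-218345335, plus strand: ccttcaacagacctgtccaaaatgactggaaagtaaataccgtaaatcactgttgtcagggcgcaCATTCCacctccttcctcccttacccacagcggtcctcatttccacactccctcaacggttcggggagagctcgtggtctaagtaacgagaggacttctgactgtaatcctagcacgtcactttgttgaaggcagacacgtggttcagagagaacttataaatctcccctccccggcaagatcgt

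CCN2 had 3 TEAD matches, at -169 to -164, -104 to -99 and -95 to -90 from the start. A count of 3 or more was found in 29 of 35116 RefSeq windows (0.083%). ANKRD1 had 2 matches, at -220 to -215 and -128 to -123, a count reached by 0.94% of windows. THBS1 had 1 match at -46 to -41 and TGFB2 had 1 at -185 to -180 in the reverse orientation. The second AXL start and the second AMOTL2 start each had 1 match, and TGFB1 and TGFBI had none. In all, 6 of the 8 genes and 6 of their 10 windows had a TEAD match, against 11.89% of all windows. Several of these genes were chosen as known targets of YAP, which acts through TEAD proteins, so this share is no separate result. The SMAD core CAGAC or its reverse complement GTCTG, a short motif present in 38.0% of windows, was also found in 6 of the 8 genes. That count is by gene, with 2 windows each for AXL and AMOTL2, whereas the 38.0% is by window. The AP-1 motif TGAGTCA or TGACTCA, present in 4.2% of windows, was found in 0 of the 8 genes. In ANKRD1 a TEAD and a SMAD match share the base at -128, the other TEAD matches share none with a SMAD match, and a match describes the sequence only.

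**Figure D1:**
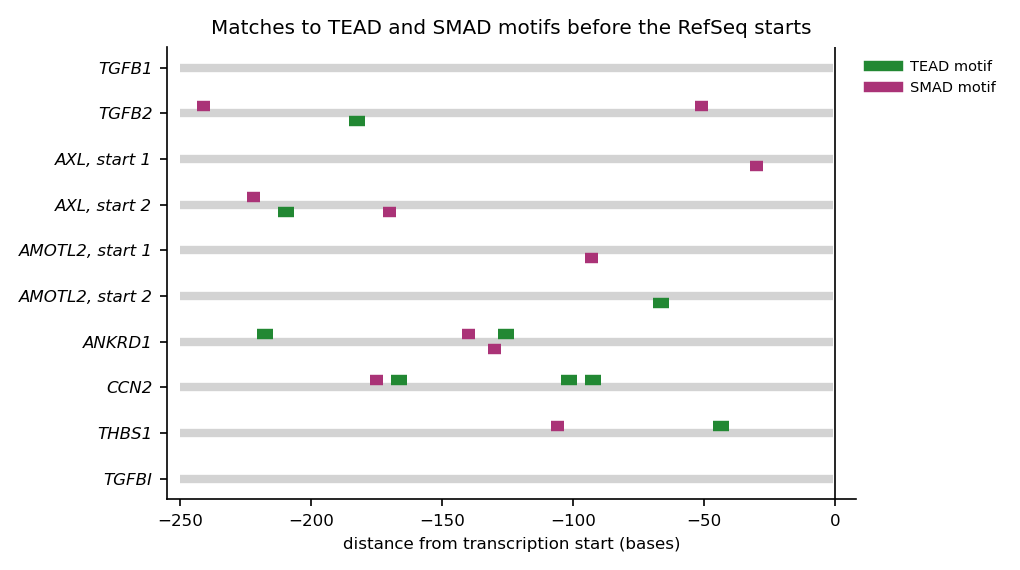
Positions of TEAD motif matches (green) and SMAD motif matches (purple) in the 250 bases before each RefSeq start, in bases from the start; marks above a line read on the strand of the gene and marks below on the other strand. CCN2 holds 3 TEAD matches and ANKRD1 holds 2, while TGFB1 and TGFBI hold none.

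The 9 genes spanned a wide range of levels. Per kilobase of the longest GENCODE 29 transcript, TGFBI was highest, at 1952 ± 186 CPM per kb in control (SD, n = 3). CCN1 followed at 288 ± 42.3 and AXL at 152 ± 4.32 CPM per kb in control. TGFB1 (80.3 ± 7.17), THBS1 (70.6 ± 22.0), TGFB2 (66.0 ± 20.2) and AMOTL2 (56.8 ± 5.75) came next, and CCN2 (37.2 ± 4.11) and ANKRD1 (23.5 ± 1.53) were lowest. The means stood in the same order in copper, from 1590 ± 191 for TGFBI to 29.9 ± 3.72 CPM per kb for ANKRD1. Over the 6 libraries the ranges of TGFBI, CCN1 and AXL did not overlap one another or any lower gene. Those of TGFB1, THBS1, TGFB2 and AMOTL2 overlapped, as did those of CCN2 (27.3 to 42.0) and ANKRD1 (22.6 to 33.6). The ranges of THBS1 (27.6 to 91.9) and TGFB2 (23.3 to 83.2) also reached into those of CCN2 and ANKRD1, so the order below AXL was not fully resolved. TGFBI alone took 0.900% of all counts in control and 0.748% in copper.

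Between copper and control, 8 of the 9 genes had a lower estimate in copper and ANKRD1 a higher one, and none of them changed by the test across all genes. With edgeR's quasi-likelihood test and Benjamini-Hochberg adjustment over 12944 genes, 0 of the 9 had an adjusted p under 0.05, as had 0% of all genes, and the adjusted p of each of the 9 was 1.00. ANKRD1 was the 1 gene of the 9 with an unadjusted p under 0.05, a mark that 3.52% of all genes reached and 1.92% reached as higher in copper. With the replicate block 0 of the 9 were called, against 0.17% of all genes. DESeq2 also called 0 of the 9, against 0.209% of all genes, and put 2 of them, ANKRD1 and TGFBI, at an unadjusted p under 0.05, against 3.41% of all genes. The median log2 fold change of the 9 was -0.13, against 0.0052 over all tested genes, of which 48.6% had an estimate below 0. The smallest count of any of the 9 in any library was 852, for which counting error alone is 3.43%.

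**Figure D2:**
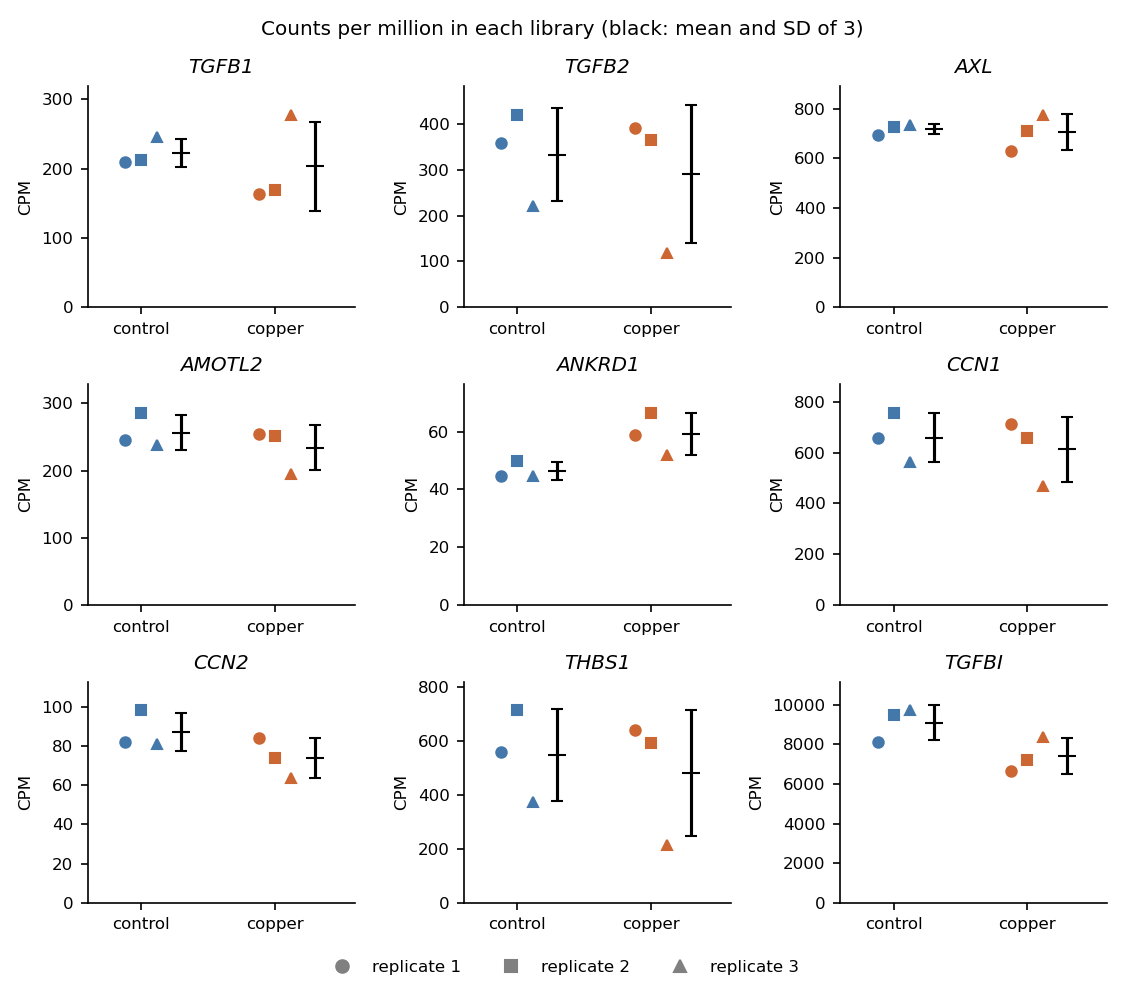
CPM of each of the 9 genes in the 6 libraries, with symbols for replicate number and the mean and SD of 3 libraries in black; the vertical axes start at 0 and differ between panels. ANKRD1 is the gene whose copper libraries (51.9 to 66.6 CPM) all lie above its control libraries (44.6 to 49.9 CPM), and TGFB2 and THBS1 are lowest in replicate 3 of both groups.

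TGFB1 (Entrez 7040; GRCh38 chromosome 19, 41330323 to 41353922, minus strand), the prototype ligand, stood at 163, 169 and 278 CPM in copper replicates 1, 2 and 3 and at 209, 213 and 245 CPM in control. Copper replicates 1 and 2 lay below every control library and copper replicate 3 above them all. The log2 fold change was -0.13 (SE 0.21), with a 95% interval from -0.62 to 0.35. In replicates 1 and 2 without replicate 3, edgeR's test gave -0.35 (SE 0.05, n = 2 per group) with an adjusted p of 0.0133. TGFB1 fell in that comparison, which called 0.856% of the genes it tested and 0.355% as lower in copper. In replicate 3, which by itself allows no test, copper was higher by 0.18. The transcript of TGFB1 is 63.5% GC, in the highest decile of genes, and the median gene of that decile was higher in copper by 0.25 in replicate 3 and differed by -0.02 and -0.13 in replicates 1 and 2. With each library's trend in GC content and transcript length removed, the log2 fold change of TGFB1 was -0.21 (SE 0.09) without a block on replicate number, with an adjusted p by edgeR of 0.981, and -0.21 (SE 0.06) with the block, with an adjusted p of 0.122. These fits called 0% and 1.66% of genes. Without copper replicate 1 the estimate was 0.0027.

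TGFB2 (Entrez 7042; chromosome 1, 218345284 to 218444619, plus strand), a second ligand and itself counted among YAP targets, stood at 391, 365 and 118 CPM in copper and at 359, 420.4 and 221 CPM in control. Replicate 3 was the lowest library of each group, and the groups overlapped in replicates 1 and 2. The log2 fold change was -0.20 (SE 0.43; 95% interval -1.20 to 0.81), and it was -0.05 (SE 0.08, adjusted p 0.853 by edgeR) in replicates 1 and 2. With the replicate block it was -0.32 (SE 0.17, adjusted p 0.622), and without copper replicate 1 it was -0.47. Without copper replicate 3 the sign turned, to 0.18, and without control replicate 2 the estimate was 0.0039. The antisense gene TGFB2-AS1, which overlaps it in the table, had 1 to 10 counts in a library, against at least 2182 for TGFB2. The third ligand gene, TGFB3, averaged 0.890 CPM in copper and 0.885 CPM in control.

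AXL (Entrez 558; chromosome 19, 41219223 to 41261766, plus strand) encodes a receptor tyrosine kinase that binds GAS6 and is a known YAP target. Its level was 631, 709 and 776 CPM in copper and 695, 726 and 733 CPM in control. The control libraries lay inside the range of the copper libraries, and the log2 fold change was -0.03 (SE 0.11), with a 95% interval of -0.27 to 0.22. The estimate was 0.0025 with total count scaling and 0.046 without copper replicate 1. GAS6 stood at 146 CPM in copper and 125 CPM in control on average, with a log2 fold change of 0.23 and an unadjusted p by edgeR of 0.245.

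AMOTL2 (Entrez 51421; chromosome 3, 134355347 to 134374447, minus strand) encodes a junction protein that binds and restrains YAP and is itself induced by it. It stood at 255, 252 and 196 CPM in copper and at 246, 286 and 238 CPM in control. Only copper replicate 3 lay outside the control range, and the log2 fold change was -0.13 (SE 0.13). In replicates 1 and 2 it was -0.07 (SE 0.07), and without copper replicate 3 it was -0.018.

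ANKRD1 (Entrez 27063; chromosome 10, 90912096 to 90921087, minus strand) encodes an ankyrin repeat protein of muscle and of stretched or injured cells and is a standard readout of YAP. It stood at 58.9, 66.6 and 51.9 CPM in copper and at 44.7, 49.9 and 44.6 CPM in control. Every copper library lay above every control library, as for 5.45% of all genes, and no other of the 9 had groups without overlap, which 10.8% of all genes had in either direction. The group means were 59.1 ± 7.36 and 46.4 ± 3.03 CPM (SD, n = 3). The fitted log2 fold change was 0.35 (SE 0.12; 95% interval 0.07 to 0.62), or 1.27-fold. Within replicate numbers 1, 2 and 3 the log2 difference was 0.40, 0.41 and 0.22, and 17.7% of all genes were higher in all 3. In replicates 1 and 2 alone it rose by 0.41 (SE 0.08, n = 2 per group), with an adjusted p by edgeR of 0.0494. That is just under the threshold and, with TGFB1, 1 of 2 calls among the 9 genes, in a comparison that called 0.501% of genes as higher in copper. With all 6 libraries the adjusted p was 0.330 with the replicate block and 0.0527 with the block and the GC and length trend removed. Leaving out 1 library at a time gave estimates from 0.25, without copper replicate 2, to 0.43, without copper replicate 3.

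CCN1 (Entrez 3491; chromosome 1, 85580761 to 85583949, plus strand), also known as CYR61, encodes a secreted integrin-binding protein induced early after serum or spreading. It stood at 713, 656 and 469 CPM in copper and at 658, 757 and 564 CPM in control. Within both groups replicate 3 was lowest, and only copper replicate 3 lay below the control range. The log2 fold change was -0.11 (SE 0.18) over all libraries and -0.05 (SE 0.08) in replicates 1 and 2. It turned to 0.053 without copper replicate 3 and to 0.0042 without control replicate 2.

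CCN2 (Entrez 1490; chromosome 6, 131948177 to 131951372, minus strand), also known as CTGF, encodes a related matricellular protein that accompanies fibrosis. It stood at 84.1, 73.9 and 63.9 CPM in copper and at 82.2, 98.2 and 80.9 CPM in control. Copper replicates 2 and 3 lay below the control range and copper replicate 1 within it. The log2 fold change was -0.24 (SE 0.13; 95% interval -0.55 to 0.07), and by replicate number it was 0.03, -0.41 and -0.34. The estimate stayed below 0 under each of the 14 alternatives run, from -0.34 to -0.14, the latter without control replicate 2. CCN2, with 3 TEAD matches, and ANKRD1, with 2, had estimates of opposite sign, neither of them called over the 6 libraries. A link to the matches was not tested.

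THBS1 (Entrez 7057; chromosome 15, 39581079 to 39599466, plus strand) encodes thrombospondin 1, a matrix protein that can free TGF-beta from its latent complex. It stood at 643, 593 and 215 CPM in copper and at 559, 715 and 374 CPM in control. As for TGFB2, replicate 3 was the lowest library in each group. The log2 fold change was -0.18 (SE 0.40) over all libraries and -0.04 (SE 0.11) in replicates 1 and 2. With the replicate block it was -0.29 (SE 0.16, adjusted p 0.639 by edgeR), and without copper replicate 1 it was -0.45. It was 0.17 without copper replicate 3 and 0.053 without control replicate 2.

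TGFBI (Entrez 7045; chromosome 5, 136028988 to 136063818, plus strand) encodes a secreted matrix protein named for its induction by TGF-beta. Its mean CPM was the highest of the 12944 tested genes. It stood at 6632, 7218 and 8384 CPM in copper and at 8105, 9474 and 9711 CPM in control. Copper was lower within each replicate number, by -0.29, -0.39 and -0.21 on the log2 scale, a pattern of 3 lower differences shown by 17% of all genes. The groups nonetheless overlapped, since copper replicate 3 lay above control replicate 1. The means were 7411 ± 892 and 9097 ± 867 CPM (SD, n = 3). The fitted log2 fold change was -0.30 (SE 0.14; 95% interval -0.61 to 0.02). The adjusted p by edgeR was 0.342 with the replicate block, 0.127 in replicates 1 and 2, and 0.0612 with the block and the GC and length trend removed. The estimate stayed between -0.39 and -0.22 over the 14 alternatives run.

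**Figure D3:**
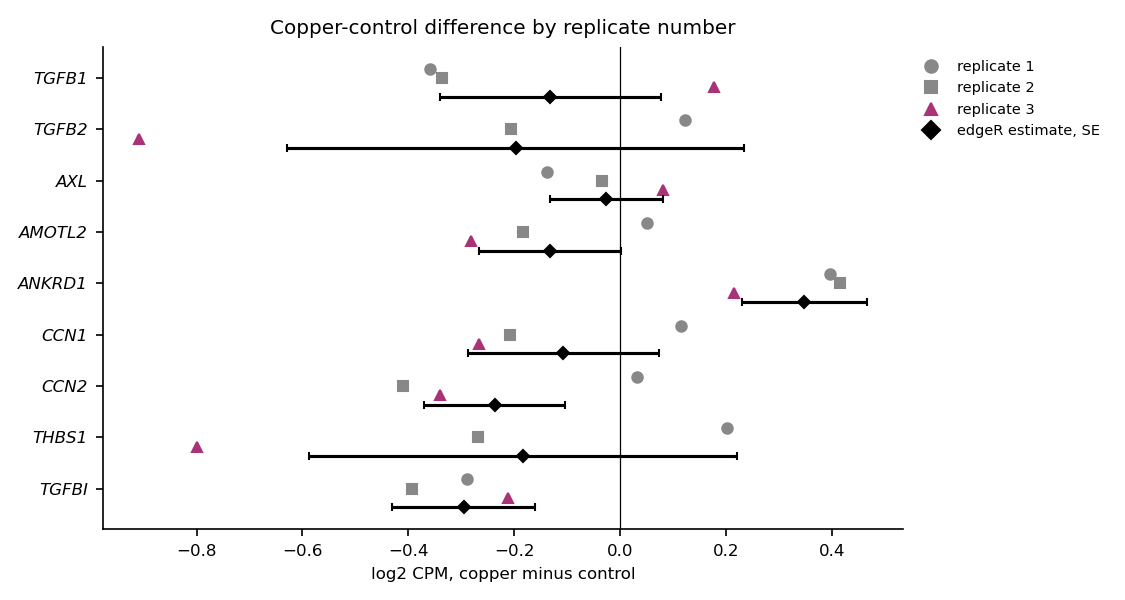
Difference in log2 CPM between the copper and control library of each replicate number (circles, squares and triangles for replicates 1, 2 and 3) and the edgeR estimate over all 6 libraries with its SE (diamonds). ANKRD1 lies above 0 and TGFBI below 0 in all 3 replicates, TGFB1 changes sign in replicate 3, and TGFB2 and THBS1 are most negative there.

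TGFB2 and THBS1 changed with replicate number. With replicate number and group as terms, edgeR's test of replicate number called both, with adjusted p-values of 0.0284 for TGFB2 and 0.0299 for THBS1, and 6.46% of all genes. These 2 were the only ones called among the 9. DESeq2, which called more of all genes by replicate number than edgeR did (counts in the last section), also called TGFB1 (adjusted p 0.0194) and CCN1 (adjusted p 0.0190). Replicate 3 was lower than replicate 1 by a log2 value of -1.20 for TGFB2 and of -1.08 for THBS1, so replicate 1 held 2.30 and 2.11 times as much. The difference of replicate 3 from the mean of replicates 1 and 2 was -1.68 in copper and -0.81 in control for TGFB2, and -1.52 and -0.76 for THBS1. For CCN1 it was -0.55 and -0.32, and for TGFB1 it was 0.74 in copper and 0.22 in control. Each of the 9 genes moved the same way in both groups, 6 lower and 3 higher in replicate 3, while 36.4% of all genes were lower and 37.4% higher in both. A fit with group, replicate 3 against replicates 1 and 2, and their interaction tested whether this shift differed between copper and control. It was added after seeing the data, rests on 1 library of replicate 3 in each group, and takes that library to vary as replicates 1 and 2 do. The shift was larger in copper by 0.53 for TGFB1 (SE 0.09, adjusted p 0.00968 by edgeR) and differed by -0.86 for TGFB2 (SE 0.14, adjusted p 0.00683). These were 2 calls among the 9 genes, where 11.3% of all genes were called, and THBS1 lay at the threshold (-0.76, SE 0.20, adjusted p 0.0503). With the GC and length trend removed, 0 of the 9 and 0.132% of all genes were called, with TGFB1 at 0.19 (adjusted p 0.379), TGFB2 at -0.56 (adjusted p 0.192) and THBS1 at -0.51 (adjusted p 0.382).

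The shift of replicate 3 moved with base composition. Between the lowest and the highest decile of genes by transcript GC content, the median difference of replicate 3 from replicates 1 and 2 ran from -0.37 to 0.44 among copper libraries, and from -0.03 to 0.12 among control libraries. Between the shortest and the longest decile of transcripts it ran from 0.30 to -0.40 among copper libraries, and from 0.07 to -0.07 among control libraries. TGFB2 (38.9% GC) and THBS1 (45.6% GC) lay well below the medians of their GC deciles, which were -0.31 and -0.08 in copper and -0.04 and -0.02 in control. The medians of their length deciles were -0.15 for TGFB2 and -0.40 for THBS1 in copper, and -0.02 and -0.07 in control. Of the genes in the same GC decile, 0.545% were lower than TGFB2 in copper and 1.40% in control, and 0.311% and 1.48% were lower than THBS1. With the GC and length trends removed, replicate 3 was still lower than replicate 1 by a log2 value of -1.01 for TGFB2 (adjusted p 0.0020 by edgeR) and of -0.93 for THBS1 (0.0031), in a fit that called 23.9% of genes. CCN1 (-0.52, adjusted p 0.0077) and AMOTL2 (-0.36, adjusted p 0.0169) were called in that fit as well, and TGFB1 was not (0.18, adjusted p 0.163). What set replicate 3 apart is not recorded in the labels.

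**Figure D4:**
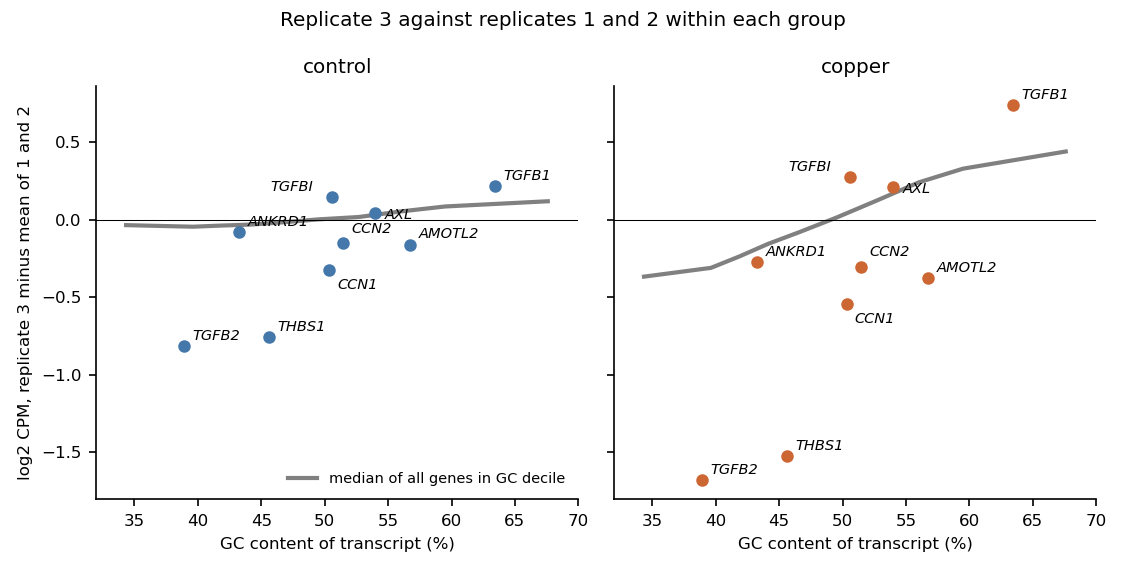
Difference in log2 CPM between replicate 3 and the mean of replicates 1 and 2 for the 9 genes, within control (left) and copper (right), against the GC content of the transcript; the grey line joins the medians of all genes in each decile of GC content. TGFB2 and THBS1 lie far below the line in both groups (-0.81 and -0.76 in control, -1.68 and -1.52 in copper).

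The genes fell into sets by how they varied over the 6 libraries. Likeness was measured as the root mean square difference of log2 CPM after centring each gene on its own mean, with no test, since replicate 3 dominates the measure. Of the 36 pairs, TGFB2 and THBS1 were closest at 0.070, followed by AMOTL2 and CCN2 (0.075), AMOTL2 and CCN1 (0.085) and CCN1 and CCN2 (0.12). AXL and TGFBI (0.15) and TGFB1 and TGFBI (0.18) came next. TGFB1 and TGFB2 were the least alike of all pairs, at 0.88. Among 9257 other genes averaging 10 CPM or more, NOCT (0.028), GPR176 (0.045), TPM3P9 (0.059) and NDST1 (0.059) lay closest to CCN2. ZNF134 (0.041), TDG (0.044), ZCCHC14 (0.050) and SHROOM3 (0.050) lay closest to CCN1, and PKD1 (0.040), TRABD2B (0.053), SLC35E1 (0.054) and SAPCD2 (0.060) to TGFBI. None of these 12 was called between copper and control over the 6 libraries, with log2 fold changes from -0.36 to -0.04. SAPCD2 (-0.31, SE 0.10) and TRABD2B (-0.36, SE 0.13) had unadjusted p-values by edgeR of 0.0171 and 0.0271. SAPCD2, TRABD2B, SLC35E1 and NDST1 had groups without overlap, as had 5.35% of all genes as lower in copper. They were picked for likeness to TGFBI or CCN2, so their direction is no separate result. In replicates 1 and 2 alone SAPCD2 fell by 0.32 (adjusted p 0.0297 by edgeR).

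In the wider YAP and TAZ target list, 21 of 22 genes were tested and 0 were called. The estimate was higher in copper for 5 and lower for 16, with a median of -0.07 against 0.0052 over all genes. Without the 6 genes of this list that are among the 9, the counts were 4 higher and 11 lower, with a median of -0.06. The median by replicate number was 0.04, -0.04 and -0.17, and without copper replicate 3 it was 0.017. After ANKRD1 the largest difference was that of LATS2, a Hippo kinase induced by YAP in feedback, at 58.5 ± 6.88 CPM in copper and 69.8 ± 2.35 in control (SD, n = 3). LATS2 differed by -0.26 on the log2 scale (SE 0.11; unadjusted p by edgeR 0.0530), and its groups did not overlap, as for 5.35% of all genes lower in copper. In replicates 1 and 2 it was at -0.14, and without copper replicate 3 at -0.16. Among replicates 1 and 2 alone, 1 gene of the list was called, ANKRD1, in a comparison that called 0.856% of all genes.

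YAP1 itself, TAZ (WWTR1) and the tested TEAD genes, TEAD1, TEAD3 and TEAD4, were not called, in a test that called 0% of all genes. YAP1 was at 129 ± 23.1 CPM in copper and 143 ± 3.34 in control (log2 fold change -0.15, SE 0.14), WWTR1 at 302 ± 73.4 and 284 ± 38.8 (0.09, SE 0.20), and TEAD1 at 161 ± 49.4 and 192 ± 19.2 CPM (-0.25, SE 0.23). Leaving out copper replicate 1, copper replicate 2 or control replicate 3 put WWTR1 at -0.0034, -0.037 or -0.020. Without copper replicate 3, YAP1 was at -0.0058 and TEAD1 at -0.017. TEAD3 was at 0.13 (SE 0.11) and TEAD4 at 0.02 (SE 0.14). The groups of TEAD3 did not overlap, as for 5.45% of all genes higher in copper. Its difference was 0.19, 0.10 and 0.12 in replicates 1, 2 and 3, and 17.7% of all genes were higher in all 3. Of the 23 tested Hippo pathway genes 0 were called, with 5 higher and 18 lower and a median of -0.13. That median was -0.05 and 0.03 in replicates 1 and 2 and -0.32 in replicate 3, and it was 0.044 without copper replicate 3. FAT4, a giant cadherin upstream of the Hippo kinases, had the largest difference (-0.29, SE 0.23), which was -0.056 without copper replicate 3.

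In the TGF-beta target list, 24 of 25 genes were tested and 0 were called by edgeR, with 6 higher and 18 lower and a median of -0.10. The medians were -0.11, -0.10 and -0.10 in replicates 1, 2 and 3, and the median over all libraries was -0.027 without control replicate 3 and -0.051 without copper replicate 1. CDKN1A and COL1A1 were the 2 genes of this list with an unadjusted p under 0.05. CDKN1A, which encodes the cell cycle inhibitor p21 and is also a p53 target, was at 219, 208 and 212 CPM in copper and at 165, 151 and 158 CPM in control. Its groups did not overlap, as for 5.45% of all genes higher in copper. It differed by 0.40, 0.46 and 0.42 in replicates 1, 2 and 3, a log2 fold change of 0.43 (SE 0.09), and 17.7% of all genes were higher in all 3. The adjusted p for CDKN1A was 0.710 by edgeR and 0.134 with the replicate block, but 0.00208 by DESeq2, 0.00956 by edgeR in replicates 1 and 2, and 0.0299 with the block and the GC and length trend removed. Those 3 were its only calls among the 14 alternatives, and without 1 library at a time its adjusted p by edgeR was between 0.0781 and 1.00. COL1A1, named here after its values were seen, is a collagen gene that is also on the fibroblast marker list. It stood at 3.42 ± 1.23 CPM in copper and 6.53 ± 2.42 in control (log2 fold change -0.90, SE 0.36, unadjusted p by edgeR 0.0376), with overlapping groups. COL1A1 is itself part of the summed fibroblast marker level, so that level is no separate measure beside it. A part of fibroblast content in this difference was not tested.

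FN1, the fibronectin gene, was at 1700 ± 692 CPM in copper and 1345 ± 252 in control (0.34, SE 0.29). FN1 was called only with the replicate block and the GC and length trend removed together (0.36, adjusted p 0.0429 by edgeR). With the block alone its adjusted p was 0.593, with the trend removed and no block it was 0.998, and its estimate was -0.019 without copper replicate 1. The inhibitory SMAD7, induced by TGF-beta as feedback, was at 38.2 ± 4.87 and 39.6 ± 3.92 CPM (-0.05, SE 0.13). It was 0.0063 without copper replicate 2 and 0.033 without control replicate 3.

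Of 16 tested genes of TGF-beta receptors and SMAD signalling, 0 were called, with 2 higher and 14 lower and a median of -0.15. The list median was -0.07 in replicates 1 and 2 alone, and -0.07 over all libraries with the GC and length trend removed. TGFBR1, the signalling receptor, had a log2 fold change of -0.19 (SE 0.26), which was 0.033 without copper replicate 3, and TGFBR2, the ligand-binding receptor, one of 0.10 (SE 0.11). SMAD2, SMAD3 and SMAD4 were at -0.14, -0.19 and -0.17, with SMAD3 at 0.075 without control replicate 3 and SMAD2 at -0.046 without copper replicate 3. SMAD4 was at -0.062 with the GC and length trend removed, and at -0.078 with the block as well. ENG, the accessory receptor endoglin, had the largest difference of the list, at 22.8 ± 8.27 CPM in copper and 30.2 ± 5.47 in control (-0.40, SE 0.25). ENG was called only with the block and the GC and length trend removed together (-0.47, adjusted p 0.0146 by edgeR). With the block alone the adjusted p was 0.354, and with the trend removed and no block it was 0.852. The estimate for ENG was -0.22 without copper replicate 1 and -0.73 without copper replicate 3. TGFBRAP1, a receptor-associated protein, was at 0.20 (SE 0.18), at 0.069 without copper replicate 2 and at 0.38 without copper replicate 3. TGFBR2 was at 0.015 without copper replicate 2.

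Of 13 tested genes of TGF-beta ligands and their activation, 0 were called, 7 higher and 6 lower, with a median of 0.02. The largest difference was that of LTBP1, a latent TGF-beta binding protein, at 5.43 ± 0.677 and 7.20 ± 1.63 CPM (-0.39, SE 0.20), which was -0.21 without control replicate 3, and that of TGFB2 followed. Replicate number was called for 6 of the 13, among them TGFB2 and THBS1, and for 6.46% of all genes. The list of receptors and ligands of the 9 gene products, which also holds TYRO3, MERTK and PROS1, gave 0 calls among 18 tested genes. Of these 18, 10 were higher and 8 lower, with a median of 0.0022. ITGB3, the integrin beta 3 chain that pairs with alpha V to bind CCN1, CCN2 and thrombospondin 1, was at 57.6, 63.3 and 64.3 CPM in copper and at 46.2, 42.3 and 53.7 CPM in control. The groups of ITGB3 did not overlap, as for 5.45% of all genes higher in copper. Its log2 fold change was 0.38 (SE 0.12, unadjusted p by edgeR 0.0120). ITGB3 was called in 2 of the 14 alternatives, at 0.45 in replicates 1 and 2 alone (adjusted p 0.0237) and at 0.39 with the block and the GC and length trend removed (adjusted p 0.0390). The adjusted p was 0.323 with the block alone, 0.646 by DESeq2 and 0.515 with the trend removed and no block. LRP1, an endocytic receptor for CCN2 and thrombospondin 1, was at -0.27 (SE 0.14), and at -0.18 without copper replicate 1.

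Serum response and immediate early genes, which are induced by serum much as CCN1 is, gave 0 calls among 21 tested genes, 9 higher and 12 lower, with a median of -0.0060. KLF6 was at -0.24 (SE 0.13), and at -0.15 without control replicate 3. KLF2 and FOSL1 were at 0.38 (SE 0.40) and 0.31 (SE 0.33), and at -0.23 and -0.13 without copper replicate 3. Of 13 CCN, thrombospondin and related genes only 5 passed the filter, CCN1, CCN2, THBS1, THBS3 and TGFBI, with 1 higher, 4 lower and a median of -0.18. That median was -0.0034 without control replicate 2.

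**Figure D5:**
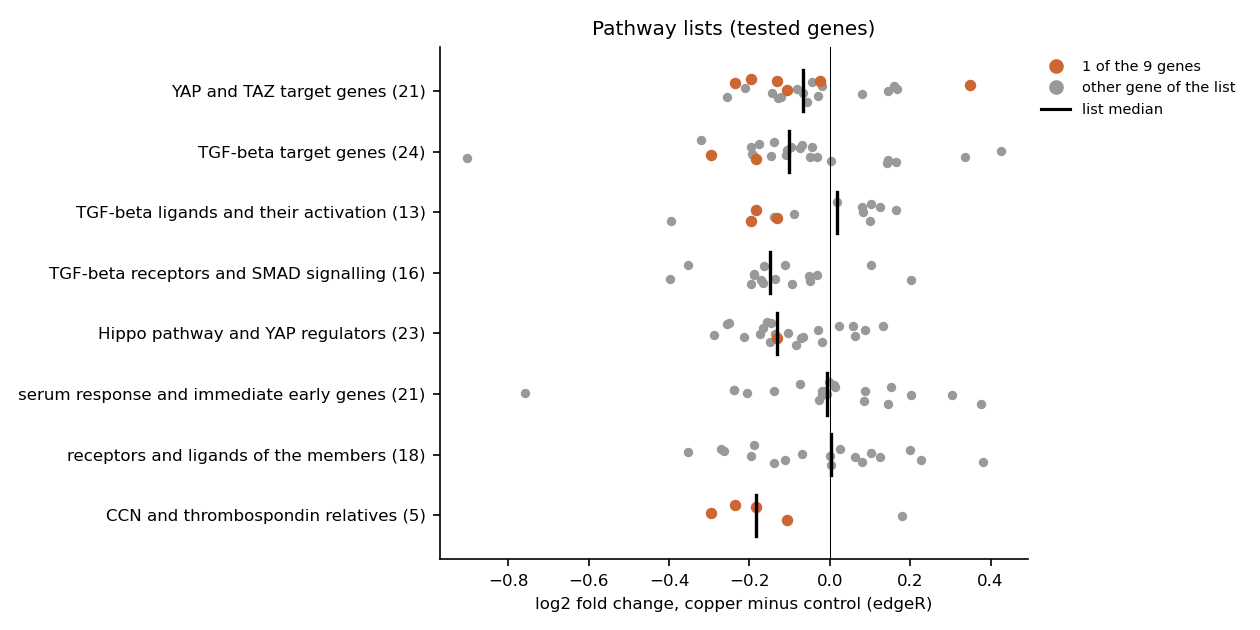
Log2 fold change between copper and control (edgeR) of the tested genes of each pathway list, with their number in parentheses, the 9 genes in orange and the list median as a bar. Medians lie between -0.18 and 0.02, and no gene shown had an adjusted p under 0.05 in this test.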

How the data were processed

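Per the labels' protocols, a directional kit was used on total RNA. The authors deposited 1 table of raw counts per gene. Per the submitters' processing notes, STAR, FastQC, edgeR and the build GRCh38 were used, with roles and versions not given. The counting program and its use of strand and of multiply mapped reads are not given in the sources used here. Starts in the table count from 0, so 1 was added. Of the table's genes, 5 carry no symbol and were not used (0.000814% of counts). Libraries held 16301772 to 25079913 counts.

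The tests ran on these counts in R 4.3.3 and edgeR 4.0.16: filterByExpr (minimum count 10, minimum total 15), TMM scaling, the robust quasi-likelihood test of copper against control with group as the term, Benjamini-Hochberg adjustment over all 12944 tested genes, calls under 0.05, and a prior count of 2 for log2 fold changes. CPM are scaled by TMM library size. Standard errors are the fold change divided by the square root of F. Replicate number was tested as 2 terms beside group, and the interaction of group with replicate 3 against the rest was added after seeing the data. Alternatives were RLE and total count scaling, no filter, DESeq2 1.42.0, the replicate block, replicates 1 and 2 alone, each library left out, and, chosen after seeing these data, removal of each library's spline trend in GC content and length of the longest GENCODE 29 transcript (99.24% of tested genes matched), with and without the block. Earlier results, in which replicate 3 stood apart in both groups, were known when replicates 1 and 2 alone were set as an alternative. The fits were tested on simulated counts. Libraries within a group differed by more than sampling noise, with a lowest chi-square of 5.04 per degree of freedom.

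The 9 genes and the lists, written from general knowledge, were chosen with earlier results of these data known. Beside the 9 genes, the text names, for each list, the gene of smallest p and the 2 of largest change among those averaging 5 CPM or more, 10 pathway genes whatever their values (1 of them is not reported here), and the 4 genes most like each of CCN1, CCN2 and TGFBI. The replicate numbers come from the sample titles. Deviations of same-numbered libraries from their group means correlated at 0.46, 0.40 and 0.65 across genes, above the minimum of 0.1. Replicate 3 stood apart in both groups, which alone would give positive values, and libraries of unlike number were not compared. The values therefore do not show that replicates 1 and 2 pair across groups. The labels do not say so either, and the main test has group only, with the replicate block as an alternative. Genes are not independent replicates.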

Additional observations from a re-analysis of the deposited data

Results flagged for a closer look

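The shift of replicate 3 against replicates 1 and 2 differed between copper and control for TGFB1 and TGFB2, by the test of that difference. TGFB1 shifted by 0.74 in copper and 0.22 in control on the log2 scale, a difference of 0.53 (SE 0.09, adjusted p 0.00968 by edgeR). TGFB2 shifted by -1.68 in copper and -0.81 in control, a difference of -0.86 (SE 0.14, adjusted p 0.00683 by edgeR). Each value rests on 1 library of replicate 3 per group, 11.3% of all genes were called, and neither gene was called with the GC and length trend removed.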

How the results depend on the processing

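Of 14 alternatives, the number of genes called between copper and control was 0 under 8. Without the filter it was 12, by DESeq2 27, under the replicate block 22, in replicates 1 and 2 alone 111, and 213 with the block and the GC and length trend removed. Leaving out 1 library gave 0 to 15 genes, with 15 without copper replicate 3. Among the 9 genes, 2 were called in replicates 1 and 2 alone, TGFB1 and ANKRD1, and 0 under the other 13, so the block changed no call among them. Replicate number was called for 836 genes and 2 of the 9, for 3109 genes and 4 of the 9 with no filter, for 1437 and 4 with DESeq2, and for 3072 and 4 with the GC and length trend removed. The difference in the replicate 3 shift between copper and control was called for 1466 genes and 2 of the 9, for 592 genes by DESeq2, and for 17 genes and 0 of the 9 with the trend removed. Leaving out 1 library gave 1013 to 2635 genes, the highest without copper replicate 1, and 2 to 3 of the 9. The cause was not tested. With total count scaling the median of all genes was 0.033, against 0.0052, and AXL was at 0.0025.

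Leaving out 1 library gave estimates from -0.42 to 0.0027 for TGFB1, -0.47 to 0.18 for TGFB2, -0.10 to 0.046 for AXL, -0.23 to 0.053 for CCN1 and -0.45 to 0.17 for THBS1. The ranges were -0.019 to 0.58 for FN1, -0.23 to 0.63 for KLF2, -0.13 to 0.56 for FOSL1, -0.037 to 0.28 for WWTR1, -0.48 to 0.075 for SMAD3, -0.16 to 0.033 for SMAD7 and -0.41 to 0.033 for TGFBR1. For genes like CCN1 they were -0.23 to 0.063 for TDG, -0.14 to 0.11 for ZCCHC14 and -0.22 to 0.092 for SHROOM3. ZCCHC14 was also at 0.037 in replicates 1 and 2, 0.0084 with the trend removed and 0.0075 with the block as well. The library behind each upper end was copper replicate 3 (TGFB2, CCN1, THBS1, TGFBR1, FN1, WWTR1, TDG, ZCCHC14, SHROOM3), copper replicate 1 (TGFB1, AXL, KLF2, FOSL1) or control replicate 3 (SMAD3, SMAD7).

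The TGF-beta target median of -0.10 was -0.075 with total counts, -0.12 with no filter, -0.11 with the replicate block and -0.070 in replicates 1 and 2, and ranged from -0.13 without control replicate 1 to -0.027 without control replicate 3. The receptor and SMAD median of -0.15 was -0.070 in replicates 1 and 2, -0.067 with the trend removed and -0.075 with the block as well, and ranged from -0.18 to -0.048, the latter without copper replicate 3. Over all named genes, an alternative left direction and call as they were 552 times, added a call 10 times and turned the sign 26 times. The lowest count of any of the 9 genes in a library was 852, a counting error of 3.43%.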
